A study of Mus musculus with 42 samples.

Results

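Enteroendocrine cells are the hormone-producing cells of the gut lining, and 9 transcription factors known to build and maintain them are described here: Neurog3, Neurod1, Insm1, Pax4, Rfx6, Nkx2-2, Fev, Pax6 and Isl1. They were taken by gene symbol from the 20462 genes with a row in at least 1 of 9 deposited tables. The study sequenced polyadenylated RNA from 42 mouse libraries in 14 groups: colon crypts, the glands of the epithelium, freed by EDTA and shaking, and whole dissected colon tumors. All mice were on a C57/BL6 background and at least 8 weeks old. Mtg16-/- mice, labelled Mtg16-null, are null for the transcriptional corepressor MTG16 (gene Cbfa2t3), and T/T mice are homozygous for its P209T substitution. Both alleles came through heterozygous crosses and so are present in all cells of the mouse, each in a colony of its own, and WT denotes littermates from the same colony. Untreated crypts came from the 5 cm of proximal colon next to the cecum or the 5 cm of distal colon next to the anus. Injured crypts were distal, taken after 5 days of 2% dextran sodium sulfate (DSS, which damages the colon lining) in the drinking water and 4 days of recovery on water. Tumors were from the distal colon of WT and T/T mice given 10 mg/kg of the carcinogen azoxymethane (AOM) and then 3 cycles of 3% DSS, each of 4 days DSS and 16 days water.

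In the intestine, enteroendocrine cells arise from secretory progenitors that switch on Neurog3 for a short time, and Neurog3 is required for nearly all of them. Neurod1, Insm1, Pax4, Rfx6 and Nkx2-2 follow as the cell commits, and Fev, Pax6 and Isl1 are best known from later cells, where they help to choose and keep a hormone program. Neurog3 and Neurod1 are basic helix-loop-helix proteins that pair with E proteins and bind the E-box, the 6-letter word CANNTG, and MTG16 is known as a corepressor that E proteins recruit.

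E-boxes in the promoters of 4 factors are shown as examples. In distal crypts the Mtg16-/- libraries of the first 3 all lay above WT, while those of Isl1, also higher on average, overlapped WT. Insm1, Pax4, Rfx6, Fev and Pax6 stood apart from WT like the first 3, and their sequences are not shown. The sequences are from RefSeq on mouse build GRCm38.p6, from 250 bases before to 50 bases after the gene start that RefSeq gives, read 5′ to 3′ on the gene's own strand, with every E-box in capitals. CANNTG reads the same class of word on both strands, so a single scan covers both. Neurog3 lies at chr10:62132840-62133139 on the plus strand, Neurod1 at chr2:79456587-79456886 on the minus strand, Nkx2-2 at chr2:147186353-147186652 on the minus strand and Isl1 at chr13:116309639-116309938 on the minus strand. For Nkx2-2 the RefSeq start lies inside the gene as the GENCODE annotation draws it, 7841 bases downstream of that annotation's 5′ end.
Neurog3: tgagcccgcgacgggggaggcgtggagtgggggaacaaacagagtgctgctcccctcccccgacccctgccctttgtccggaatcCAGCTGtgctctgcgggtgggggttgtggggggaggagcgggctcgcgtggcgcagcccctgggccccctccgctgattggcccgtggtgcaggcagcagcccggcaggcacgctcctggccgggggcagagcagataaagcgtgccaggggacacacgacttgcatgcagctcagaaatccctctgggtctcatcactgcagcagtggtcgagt
Neurod1: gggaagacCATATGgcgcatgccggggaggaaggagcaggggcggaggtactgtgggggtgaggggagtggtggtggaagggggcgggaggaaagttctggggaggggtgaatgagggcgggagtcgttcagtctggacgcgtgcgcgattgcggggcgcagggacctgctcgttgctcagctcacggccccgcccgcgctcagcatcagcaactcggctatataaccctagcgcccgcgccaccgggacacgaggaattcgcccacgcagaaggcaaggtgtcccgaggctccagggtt
Nkx2-2: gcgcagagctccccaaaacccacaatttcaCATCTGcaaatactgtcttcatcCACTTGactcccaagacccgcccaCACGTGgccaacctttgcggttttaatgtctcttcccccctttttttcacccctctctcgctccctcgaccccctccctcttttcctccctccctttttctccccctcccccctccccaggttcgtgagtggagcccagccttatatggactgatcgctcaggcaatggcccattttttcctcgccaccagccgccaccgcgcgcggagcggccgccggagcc
Isl1: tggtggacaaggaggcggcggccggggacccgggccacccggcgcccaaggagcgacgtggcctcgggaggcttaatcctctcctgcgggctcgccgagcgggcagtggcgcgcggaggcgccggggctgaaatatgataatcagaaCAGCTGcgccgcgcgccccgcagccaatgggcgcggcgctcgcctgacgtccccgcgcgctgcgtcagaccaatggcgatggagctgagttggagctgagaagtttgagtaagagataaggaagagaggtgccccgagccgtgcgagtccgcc
Counted from the RefSeq start to the first base of the word, Neurog3 held CAGCTG at -165, Neurod1 CATATG at -242, and Isl1 CAGCTG at -103. Nkx2-2 held 3 words, CATCTG at -220, CACTTG at -197 and CACGTG at -173. Of 9 factors, 7 had a promoter in the RefSeq table. Of these, Rfx6, whose RefSeq start lies 7762 bases inside the GENCODE gene, held CATTTG at 2, Fev held none, and Pax6 held none in its first entry and CAAATG at -20 in its second, which starts 13563 bases inside the GENCODE gene. CANNTG occurred in 72.3% of 32851 promoters of the same length, CAGCTG in 16.3%, and 3 or more E-boxes in 17.6%, so the presence of such a word is common and says nothing about binding.

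All values below are normalized counts within 1 table, that is, estimated reads per gene divided by a size factor for each library, unless a level is given in CPM, normalized counts per 1000000 of the library's total. Recovered read totals were 32.2 to 74.7 M for the 7 tables in which whole reads could be recovered. A gene "passed the test" where its limma p, adjusted over all genes tested in the table by the Benjamini-Hochberg method, was under 0.05. Cbfa2t3 was lower in Mtg16-/- than in WT proximal crypts (631 to 1057 against 1634 to 3221) and after DSS (427 to 595 against 1845 to 2519). In the untreated distal colon the ranges overlapped, since the library labelled Mtg16-/- replicate 2 held 1095 and WT replicate 3 held 1027. Which exons the null allele lacks is not given in the sources used here, so this checks the labels only in part. In T/T the same gene read 1509 to 2196 against 937 to 1040 in WT distal crypts. In bulk RNA, fewer cells of a type and less RNA per cell cannot be told apart. The labels give no more than littermate mice as replicates, so p-values measure the spread between these samples.

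Compared per kilobase of the longest transcript, Insm1, a zinc-finger repressor, had the highest level of the 9 in WT distal crypts of the Mtg16-/- colony, at 2.24 ± 0.37 CPM per kilobase (SD, n = 4). Neurog3 (1.22 ± 0.32), Fev (1.04 ± 0.15), Neurod1 (1.01 ± 0.062), Nkx2-2 (0.904 ± 0.094) and Isl1 (0.770 ± 0.31) followed, with neighbours in this order overlapping within 1 SD. Rfx6 (0.475 ± 0.084), Pax4 (0.307 ± 0.13) and Pax6 (0.258 ± 0.052) were the lowest. In Mtg16-/- distal crypts Insm1 (6.32 ± 1.95) and Neurog3 (5.79 ± 2.71) led, ahead of Neurod1 (3.15 ± 0.66), Nkx2-2 (2.78 ± 0.92) and Fev (2.56 ± 0.72). There the levels of Neurog3 and Insm1 overlapped within 1 SD, which they did not in WT.

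Across the 14 groups, the level of Neurog3, the factor that starts the lineage, ran over a wide range. Its mean was 0.201 CPM in WT and 0.286 in T/T tumors, and 0.976 and 1.15 in the WT proximal groups. WT distal crypts held 1.67 and 1.88, and WT crypts after DSS held 1.92 (Mtg16-/- colony) and 3.06 (T/T colony). The mutant crypt groups held 2.69 in T/T proximal, which is below the 3.06 of that WT group, 3.46 in T/T distal, 3.54 in Mtg16-/- proximal, 5.89 in Mtg16-/- after DSS, 6.36 in T/T after DSS and 8.92 in Mtg16-/- distal crypts. Neighbours in this order overlapped in range, except between T/T tumors and the lowest crypt group, between the upper proximal and the lower distal WT group, and between Mtg16-/- proximal crypts and Mtg16-/- crypts after DSS. The tables were scaled apart and came from different sequencing requests, so this order is a description.

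**Figure D1:**
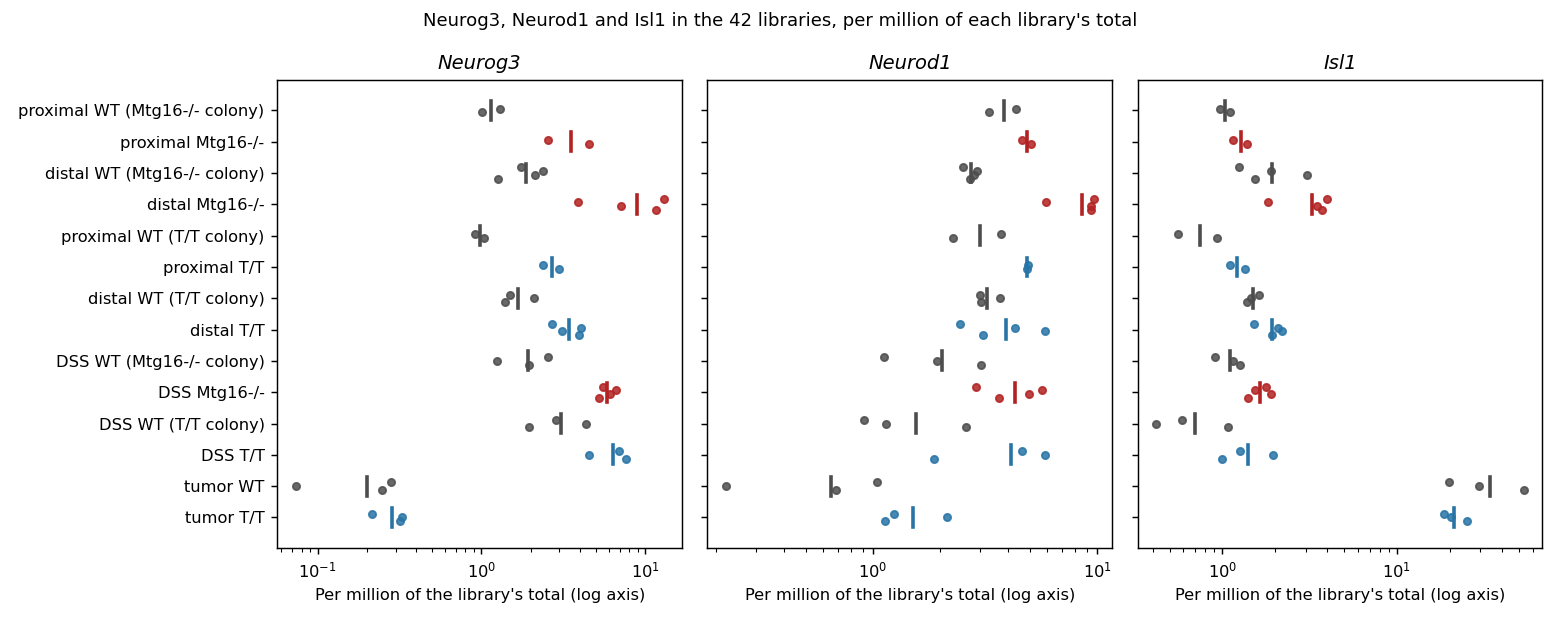
Levels of Neurog3, Neurod1 and Isl1 in CPM (log axis) in all 42 libraries, 1 row per group; points are libraries, bars are group means, grey is WT, red Mtg16-/- and blue T/T. Neurog3 spans 0.0735 to 13 CPM, and Isl1 is at 18.6 to 53.4 in the tumors against 0.418 to 4.00 in the crypts.

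In the distal colon, every one of the 9 factors had a higher mean in Mtg16-/- than in WT crypts (n = 4 and 4). For 8 of them, all but Isl1, each Mtg16-/- library lay above each WT library. Over all genes tested in this comparison, 2.58% stood apart in this way in that direction. Neurod1 alone passed the test, beside 0.239% of 13831 genes. The median log2 difference was 1.49 over the 9 factors and -0.0051 over all genes tested.

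Neurog3 read 81.3, 108, 95.2 and 60.4 in WT replicates 1 to 4 and 595, 177, 314 and 535 in Mtg16-/- replicates 1 to 4. The Mtg16-/- libraries were spread over a wide range and the lowest still exceeded the highest WT library. The log2 difference was 2.10 (SE 0.38, 95% interval 1.23 to 2.98), with an adjusted p of 0.10 by limma. Neurod1, a target of Neurog3 in the endocrine lineage, read 117, 132, 126 and 130.2 in WT and 443, 269, 413 and 432 in Mtg16-/- libraries. The WT values were close to each other and every Mtg16-/- value lay well above them, with a log2 difference of 1.59 (SE 0.18, 95% interval 1.18 to 2.00, adjusted p = 0.017, limma). Insm1 read 374, 349.7, 284 and 271 in WT and 1139, 564, 739 and 1115 in Mtg16-/- libraries. It was the most abundant of the 9 in normalized counts in both groups and its groups did not overlap (log2 difference 1.43, SE 0.24, adjusted p = 0.072).

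Pax4, a paired-homeobox repressor of early endocrine cells, read 13.1, 31.3, 16.2 and 16.7 in WT and 59.1, 61.8, 62.5 and 62.1 in Mtg16-/- libraries. The 4 Mtg16-/- values lay within 4 normalized counts of each other (log2 difference 1.69, SE 0.29, adjusted p = 0.081). Nkx2-2, a homeodomain factor, read 85.2, 76.4, 88.8 and 103 in WT and 357, 147, 254 and 309.9 in Mtg16-/- libraries, without overlap (1.52, SE 0.28, adjusted p = 0.096). Rfx6, a winged-helix factor, read 65.6 to 88.8 in WT and 113 to 170.4 in Mtg16-/- libraries (log2 difference 1.00, adjusted p = 0.127). Among the factors of later cells, Fev, an ETS factor of serotonin-producing cells, read 59.6 to 89.6 and 113 to 229 (1.23, adjusted p = 0.134).

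Pax6, a paired-homeodomain activator of the proglucagon gene, read 53.8, 54.4, 61.5 and 39.6 in WT and 176, 108, 136 and 182 in Mtg16-/- libraries. Its groups stood apart with a log2 difference of 1.49 (SE 0.24, adjusted p = 0.057). Pax6os1 lies on the opposite strand and overlaps the 5′ end of Pax6, and since the strand used in quantification is not stated the reads of the pair cannot be told apart, but Pax6os1 averaged 4.40 normalized counts or less in every crypt group. Isl1, a LIM-homeodomain factor, read 57.7, 86.8, 136 and 73.9 in WT and 183, 83.7, 153 and 172 in Mtg16-/- libraries, so the groups overlapped (0.74, 95% interval -0.016 to 1.5, adjusted p = 1.000). In two-sided exact permutation tests, 8 factors reached p = 0.0286, the smallest that 4 against 4 can give, and Isl1 gave 0.0857.

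The library labelled Mtg16-/- replicate 2 was the lowest of its group for 8 of the 9 factors, all but Pax4, and had the highest Cbfa2t3 of its group. It was also the highest for Chga, at 220.5 CPM against 115 to 148 in the other 3 Mtg16-/- libraries and 46.4 to 56.0 in WT, so it was not low in every enteroendocrine gene. It stood apart over all genes too. The squared difference between 2 libraries' normalized counts divided by their sum, averaged over genes where that sum was at least 100, was 364 to 415 between it and the other Mtg16-/- libraries and 51.4 to 122 among those. By Xist and Y-linked counts, it and WT replicate 2 were from males and the other 6 libraries from females. Without it 7 factors passed the test (all but Pax4 and Isl1), beside 1.04% of all genes. Without both male libraries 6 passed (Neurog3, Neurod1, Insm1, Pax4, Nkx2-2 and Pax6), beside 0.597%. Without any other single library none of the 9 passed, with the adjusted p of Neurod1 at 0.060 to 0.092. The libraries came from 2 sequencing requests. Within request 4149 Neurog3 and Neurod1 differed by 2.42 and 1.71 and within request 5094 by 1.78 and 1.47 on the log2 scale, and none of the 9 passed there, beside 0.0145% and 0% of genes. With the request as a covariate none passed either, beside 0.0578%, and Neurod1 had an adjusted p of 0.051. DESeq2 called 8 factors, all but Isl1, and 1.47% of genes. Using edgeR, Neurod1 and 0.21% of genes were called.

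**Figure D2:**
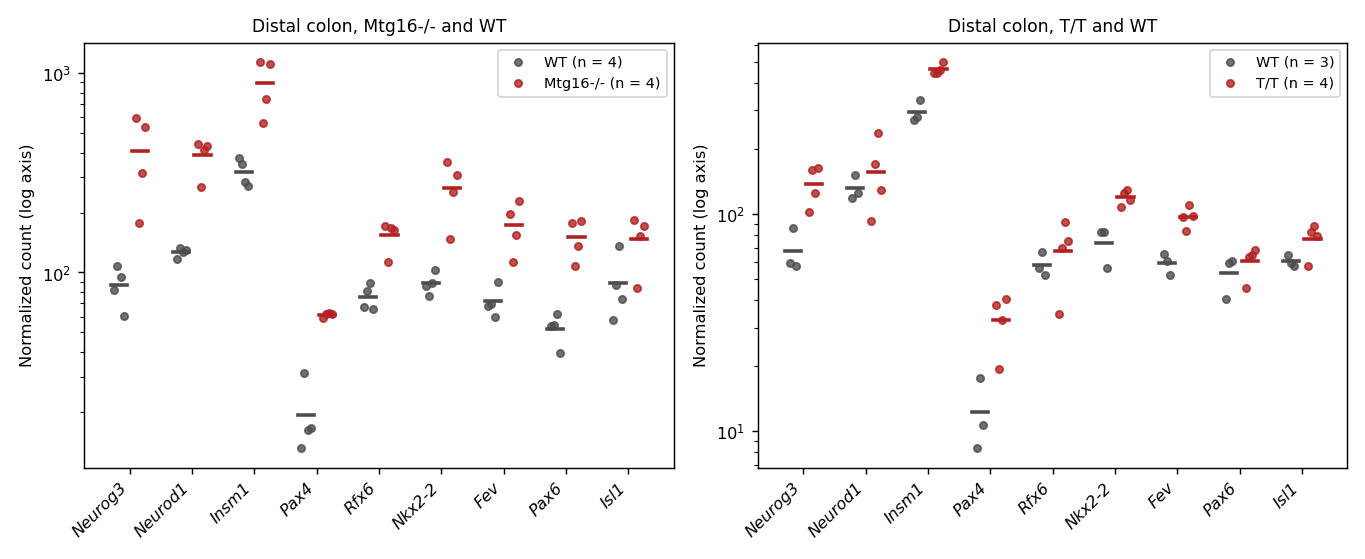
Normalized counts (log axis) of the 9 factors in distal crypts, early factors on the left; each point is a library, the bars are group means, grey is WT and red is the mutant. On the left, Mtg16-/- libraries lie above WT libraries for all but Isl1, and on the right the T/T groups stand apart for Neurog3, Insm1, Pax4, Nkx2-2 and Fev.

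Other genes of the pathway in the same comparison are read beside the 0.239% of all genes that passed. Of 13 other enteroendocrine factors 1 passed, Prox1 (1.83, adjusted p = 0.026), a homeobox gene. Of 19 tested genes for enteroendocrine products 4 passed, all higher: Tph1, the rate-limiting enzyme of serotonin synthesis in the gut (1.72), the granule proteins Chga (1.52) and Chgb (1.48), and Scg3 (1.36). None of 12 genes of secretory fate and Notch signaling and none of 7 E and Id protein genes passed. Atoh1, required for all secretory cells, averaged 2116 in Mtg16-/- and 4156 in WT libraries (log2 difference -0.96, adjusted p = 0.126). The summed level of 5 enteroendocrine markers (Chga, Chgb, Tph1, Pyy and Gcg) was 32167 to 40992 in Mtg16-/- and 12627 to 15117 in WT libraries. The summed level of enteric neuron markers, of which 4 of 7 had a row, was 250.1 to 365 against 94.6 to 173, most of it from Ret (288 against 109.8 on average). Goblet, fibroblast, smooth muscle and leukocyte marker sums overlapped between the groups. The part of these cells in the differences was not tested.

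In the proximal colon the same 9 factors had higher means in Mtg16-/- than in WT crypts (n = 2 and 2), and 8 of them, all but Fev, did not overlap. Of all genes tested, 17.5% stood apart in that direction and 0.0645% passed the test in either direction. None of the 9 passed the test by limma. At an unadjusted p under 0.05 Neurog3 alone passed, beside 5.96% of genes. Neurog3 read 61.0 and 50.6 in WT and 123 and 225 in Mtg16-/- libraries, the largest difference of the 9 (1.56, SE 0.38, adjusted p = 0.454). Neurod1 read 204 and 165 in WT and 224 and 251 in Mtg16-/- libraries, one of the smaller differences (0.37, SE 0.24, adjusted p = 0.908). Insm1 read 239.6 and 272 against 307 and 599. Its Mtg16-/- libraries lay far apart from each other (log2 difference 0.75, adjusted p = 0.833).

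For the other 6 factors the log2 difference ran from 0.29 (Isl1) to 0.95 (Pax4). Mtg16-/- replicate 2 was the higher of the 2 for 8 of 9 factors, Rfx6 excepted. Summed markers stood apart for enteroendocrine cells (23270 to 36071 in Mtg16-/- against 16744 to 20524 in WT), goblet cells (393900 to 507490 against 281805 to 295033), leukocytes (4424 to 5207 against 2892 to 4256), enteric neurons (321 to 453 against 144 to 198) and glia (28.9 to 33.5 against 11.4 to 25.8). Of the 3 goblet markers tested, only 1 had a positive log2 difference, and the median was -0.48 (range -0.52 to 1.31). The higher goblet sum therefore does not stand for most of its markers. Smooth muscle markers overlapped, with 2387 in 1 Mtg16-/- library, 38.9 in the other and 60.0 to 64.4 in WT. The part of these cells in the differences was not tested. With 2 against 2 libraries, no exact permutation p can fall below 0.333. The Mtg16-/- differences in proximal and distal crypts were set against each other, and none of the 9 passed that test, beside 0.0372% of 13424 genes. That test treated the libraries of the segments as independent, and the labels do not say whether some came from the same mice. The smallest unadjusted p was for Neurod1, with a proximal difference that was lower by 1.22 (95% interval -1.87 to -0.58, adjusted p = 0.550).

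In T/T proximal crypts (n = 2 and 2, all male by Xist and Y-linked counts) each of the 9 factors had both T/T libraries above both WT libraries. This held in that direction for 22.6% of all genes tested. None passed the test by limma, beside 0.232% of genes, and 7 of the 9 had an unadjusted p under 0.05, beside 12% of genes. Neurog3 read 41.2 and 45.5 in WT and 106 and 134 in T/T libraries (log2 difference 1.44, SE 0.27, adjusted p = 0.143). Insm1 read 188 and 142 in WT and 304 and 337 in T/T libraries (0.96, SE 0.20, adjusted p = 0.175). Both had a gap between the groups wider than the spread within either. Pax4 was scarce, with 8.04 and 9.29 in WT and 20.1 and 29.2 in T/T libraries (1.39). Pax6 read 26.1 and 15.8 against 46.6 and 47.3 (1.17). The other 5 factors had log2 differences of 0.61 (Rfx6) to 0.83 (Fev). The summed enteroendocrine markers were 23438 to 29271 in T/T and 15999 to 18978 in WT libraries, with goblet markers at 279675 to 315858 against 231514 to 249631. Of the 3 goblet markers tested, only 1 had a positive log2 difference, and the median was -0.32 (range -0.86 to 0.78). Neuron markers (243 to 273 against 137 to 191) and glia markers (20.1 to 50.3 against 13.9 to 15.1) were also higher without overlap, leukocyte markers were lower (2700.1 to 3490.4 against 3824 to 4173), and smooth muscle markers reached 782 in 1 T/T library against 30.2 to 32.5 in WT. Their part in the differences was not tested, and none of the genes on the other lists passed.

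In T/T distal crypts (n = 4, against 3 WT) the factors were split. Neurog3, Insm1, Pax4, Nkx2-2 and Fev did not overlap between the groups, whereas Neurod1, Rfx6, Pax6 and Isl1 did. The share of all genes without overlap in that direction was 4.39%. None of the 9 passed the test by limma, beside 0.0369% of genes, and the 5 factors without overlap had an unadjusted p under 0.05, beside 4.65% of genes. DESeq2 called Neurog3 and Insm1 and 0.393% of genes, and edgeR called none of the 9 and 0.0369% of genes.

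Neurog3 read 59.5, 86.2 and 57.5 in WT replicates 1 to 3 and 102, 160.2, 125 and 163 in T/T replicates 1 to 4. All 4 T/T values exceeded the highest WT value (log2 difference 1.01, SE 0.23, 95% interval 0.46 to 1.56, adjusted p = 0.689, exact permutation p = 0.0286, the smallest this design allows). Insm1 read 271, 279 and 333 in WT and 446, 445, 459 and 501 in T/T libraries, with the smallest SE of the 9 (0.65, SE 0.11, adjusted p = 0.362). Pax4 read 8.35, 17.6 and 10.6 against 38.1, 19.4, 32.4 and 40.8 (1.36). Nkx2-2 and Fev both had a log2 difference of 0.70, with T/T values of 108 to 129 and 83.7 to 111 against 56.4 to 82.5 and 52.2 to 65.8 in WT.

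Neurod1 read 119, 151 and 125 in WT and 93.2, 169, 235 and 129 in T/T libraries, and the T/T values lay on both sides of the WT values (0.18, 95% interval -0.54 to 0.89). Rfx6 (0.14, -0.64 to 0.91), Pax6 (0.18, -0.36 to 0.71) and Isl1 (0.32, -0.13 to 0.77) likewise had intervals that included 0. T/T replicate 1 held the lowest T/T value of all 4. Its values rose with the GC content of the transcript by 0.53 log2 units per 10 percentage points, against -0.16 to 0.15 in the other 6 libraries, and these 4 transcripts are the least GC-rich of the 9 (43.6% to 49.3%, against 54.7% to 63.2% for the other 5). With trends on transcript length and GC removed from each library, Neurod1, Rfx6, Pax6 and Isl1 differed by 0.39, 0.29, 0.17 and 0.44, and none passed. Smooth muscle and fibroblast marker sums reached 1079 and 846 among the T/T libraries, against at most 76.4 and 96.9 in WT, and both overlapped. Sums without overlap were those of enteroendocrine markers (15735 to 23957 against 12517 to 14134), goblet markers (531326 to 634267 against 419873 to 510341) and neuron markers (138 to 178 against 99.9 to 134). Of the 3 goblet markers tested, only 1 had a positive log2 difference, and the median was -0.25 (range -0.34 to 0.54). The part of all these cells in the differences was not tested. The T/T differences in proximal and distal crypts were set against each other, and none of the 9 passed that test, beside 0.0229% of genes, with Pax6 having the largest change (0.99, 95% interval -0.010 to 1.99, adjusted p = 0.922).

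The distal difference in Mtg16-/- mice was larger than that in T/T mice for each of the 9 factors, by 0.33 (Pax4) to 1.41 (Neurod1) on the log2 scale. None passed the test of the difference by limma, and nor did any other of 13442 genes (0%). At an unadjusted p under 0.05 stood 6 of the 9, beside 2.34% of genes. These were Neurod1 (1.41, 95% interval 0.66 to 2.17), Pax6 (1.32, 0.62 to 2.02), Neurog3 (1.09, 0.14 to 2.04), Rfx6 (0.87, 0.046 to 1.69), Nkx2-2 (0.81, 0.11 to 1.51) and Insm1 (0.77, 0.21 to 1.33), all with an adjusted p of 0.955. The 2 genotypes were bred apart and compared with different WT libraries.

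**Figure D3:**
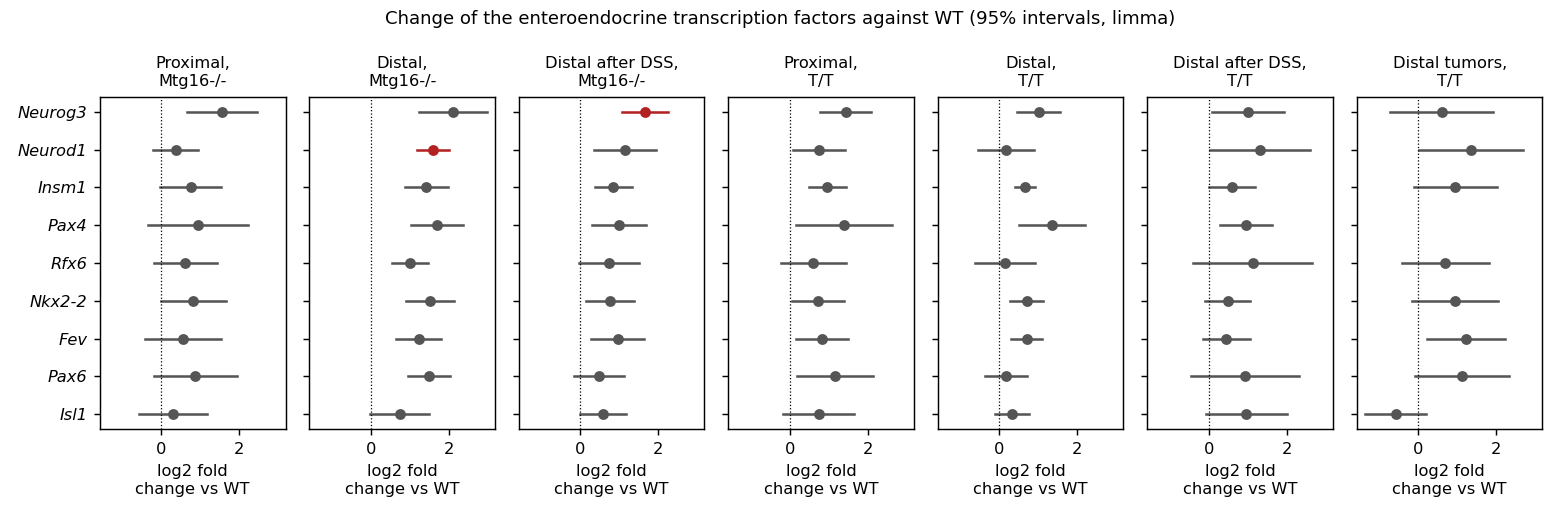
Log2 fold change (horizontal axis) of the 9 factors against WT in 7 comparisons; points are limma estimates, lines 95% intervals, and red marks an adjusted p under 0.05. Points lie to the right of 0 in every panel except Isl1 in the tumors, and the test was passed by Neurod1 in Mtg16-/- distal crypts (1.59) and Neurog3 in Mtg16-/- crypts after DSS (1.66). Pax4 was below the filter in tumors and has no point there.

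Between the segments of untreated WT colon (7 distal and 4 proximal libraries, from both colonies), 5 of 9 factors passed the test and all 5 were higher in the distal colon. Over all genes 20.1% were higher and 42.1% passed in either direction, so many genes differed by segment. Neurog3 read 42.4, 47.3, 56.5 and 47.5 in the proximal libraries and a lowest, median and highest of 59.0, 79.4 and 105 in the distal libraries. Its groups did not overlap (log2 difference 0.67, SE 0.19, adjusted p = 0.012), which held in that direction for 14.1% of genes. Insm1 read 193, 148, 222 and 255 in proximal and 265, 298 and 365 in distal libraries, also without overlap (0.63, SE 0.15, adjusted p = 0.0040). Isl1 was the third without overlap, with 25.9, 42.5, 42.2 and 52.3 in proximal and 56.3, 68.9 and 132 in distal libraries (0.90, SE 0.25, adjusted p = 0.010).

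Nkx2-2 (0.64, adjusted p = 0.0072) and Pax6 (0.87, adjusted p = 0.017) passed with overlapping groups. Rfx6 (0.48, adjusted p = 0.053), Pax4 (0.28) and Fev (0.26) did not pass. Neurod1, at 103 to 189.5 in proximal and 114 to 161 in distal libraries, was the 1 factor with a negative difference (-0.22, 95% interval -0.57 to 0.14, adjusted p = 0.314). The order was therefore not shared by the whole list. Only sequencing request 4149 held both segments, with 2 libraries of each, and the labels do not say whether those shared mice. Within it Neurog3, Insm1, Nkx2-2, Pax6 and Isl1 differed by 0.51, 0.18, 0.69, 0.30 and 1.04, Pax4 by -0.089, and none of the 9 passed, beside 14.5% of genes. Without replicate 2 of the proximal WT libraries of the T/T colony, Pax6 no longer passed (0.61, adjusted p = 0.066) and Neurod1 passed as lower in the distal colon (-0.40, adjusted p = 0.041).

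Enteroendocrine product genes differed by segment in both directions, 7 of 19 tested being higher and 10 lower in the distal colon, beside 20.1% and 22% of all genes. The hormone gene Insl5 (4.47) and the granule protein gene Scg2 (4.39) were much higher distally, and the hormone genes Nts (-9.55) and Sct (-3.49) much lower. Nts averaged 0.342 normalized counts distally, so its fitted fold change depends on the pseudocount. The summed enteroendocrine markers were 12295 to 15100 in distal and 15703 to 19522 in proximal libraries, opposite in direction to the 5 factors that passed. Of these 5 markers, 4 passed the test as lower distally and 1 as higher (log2 difference 2.15). Goblet marker sums were higher distally (448580 to 862673 against 238160 to 273575), as were those of smooth muscle (65.8 to 136 against 31.0 to 59.7), and leukocyte sums were lower (763 to 2096 against 2682 to 4293). The 3 smooth muscle markers tested had log2 differences from -0.50 to 1.91, with a median of 0.13. The part of all these cells in the differences was not tested. Of 12 other enteroendocrine factors tested, 4 were higher (among them Foxa2, 2.12, and Etv1, 0.92) and 4 lower (among them Prox1, -0.96).

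In WT distal crypts after DSS (n = 3) compared with untreated WT crypts (n = 3), the 9 factors separated into 2 sets. Neurod1, Rfx6, Pax6 and Isl1 had negative log2 differences, and Neurog3, Insm1, Pax4, Nkx2-2 and Fev had positive ones. Rfx6 and Isl1 fell past the test, beside 21.6% of genes called lower and 35.6% in either direction. Rfx6 read 65.5, 76.4 and 60.3 at baseline and 12.3, 11.4 and 39.2 after DSS (-1.86, SE 0.49, adjusted p = 0.029). Isl1 read 75.2, 68.6 and 66.4 at baseline and 28.6, 20.7 and 51.4 after DSS (-1.14, SE 0.36, adjusted p = 0.048). DSS replicate 3 held the highest value after DSS of both. Neurod1 read 138, 173 and 144 at baseline and 44.2, 56.9 and 123 after DSS (-1.15, SE 0.39, adjusted p = 0.060), and Pax6 read 47.3, 68.6 and 70.1 against 20.1, 19.6 and 53.9 (-1.11, adjusted p = 0.088). Neurog3 read 69.1, 98.9 and 66.4 at baseline and 139, 215 and 93.0 after DSS, so that its groups overlapped (0.86, SE 0.35, adjusted p = 0.093).

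The 4 factors with negative differences are the 4 with a transcript GC content below the median of the genes tested (50.2%), and the 5 with positive differences are the 5 above it. Library values moved with GC content by -0.57, -0.58 and -0.52 log2 units per 10 percentage points at baseline, relative to the mean of all 6 libraries, and by 0.70, 0.89 and 0.080 after DSS. With trends on transcript length and GC removed, none of the 9 passed, beside 26.3% of genes. Rfx6 (-0.91, adjusted p = 0.061) and Pax6 (-0.98, adjusted p = 0.091) still had negative values, Isl1 stood at -0.43 and Neurod1 at -0.0084. Insm1 moved from 0.35 to -0.049 and Neurog3 from 0.86 to 0.47. Leaving out DSS replicate 3, the library with the flattest GC trend after DSS, let 6 factors pass (Neurog3, Neurod1, Insm1, Rfx6, Pax6 and Isl1), when 66.9% of all genes passed as well. Leaving out any other library let none of the 9 pass, beside 0.00739% to 13.4% of genes. The DSS libraries were from request 5740 and the baseline libraries from request 5094, so injury and request cannot be told apart.

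**Figure D4:**
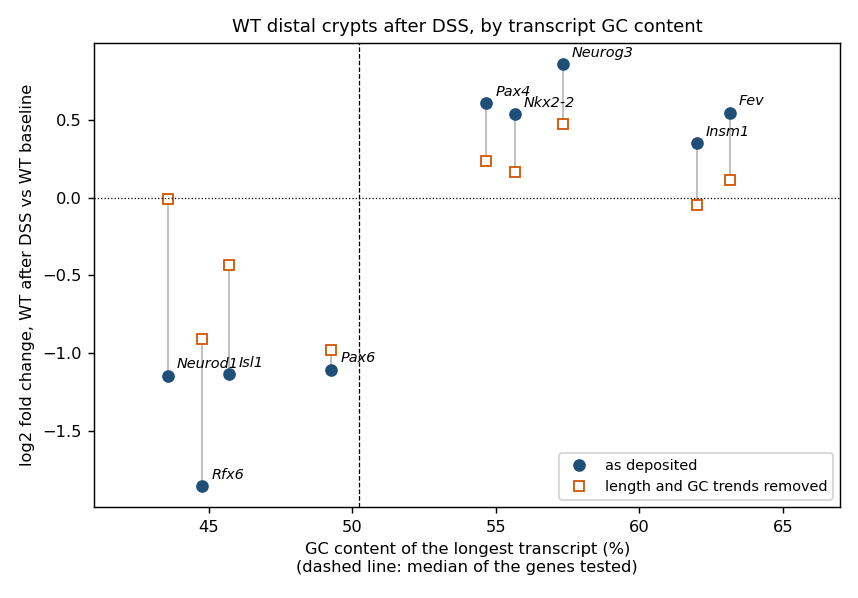
Log2 fold change of the 9 factors in WT distal crypts after DSS against baseline (vertical axis) by GC content of the longest transcript in percent (horizontal axis); filled points are the values as deposited, open squares those with length and GC trends removed. The 4 factors left of the median GC content of 50.2% (dashed) lie at -1.11 to -1.86 as deposited, and Neurod1 moves to -0.0084 with the trends removed.

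Of 18 enteroendocrine product genes tested, 7 were higher and 1 lower after DSS, beside 14% and 21.6% of all genes, among them Cck (2.33), Sct (1.39) and Insl5 (1.02), which encode gut peptides. Chga, a granule protein, rose by 0.57 on the log2 scale (adjusted p = 0.018). The summed enteroendocrine markers were 16573 to 22509 after DSS and 14543 to 16219 at baseline. Sums of goblet (936941 to 1078800 against 481804 to 592369), epithelial (588521 to 800438 against 501792 to 558900), neuron (313 to 371 against 115 to 156) and fibroblast markers (147 to 355 against 43.7 to 112) were higher after DSS without overlap, and leukocyte sums were lower (715 to 971 against 1218 to 2130). Of the 6 leukocyte markers tested, 2 had positive log2 differences, and the median was -0.19 (range -4.15 to 0.76). The part of all these cells in the differences was not tested. Atoh1 also rose (0.68, adjusted p = 0.017). Of 12 other enteroendocrine factors 2 were lower and none higher.

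After DSS, Mtg16-/- crypts (n = 4) again had a higher mean than WT crypts (n = 3) for all 9 factors, and 7 did not overlap, all but Rfx6 and Pax6. Without overlap in that direction were 6.18% of all genes tested. Neurog3 alone passed the test, beside 0.629% of genes. It read 146, 69.4 and 107 in WT replicates 1 to 3 and 315, 352, 343 and 302 in Mtg16-/- replicates 1 to 4. The Mtg16-/- values were close together and all more than 2 times the highest WT value (1.66, SE 0.27, 95% interval 1.06 to 2.27, adjusted p = 0.032). Neurod1 read 63.8, 107 and 165 in WT and 165, 299, 279.6 and 209.4 in Mtg16-/- libraries, with the highest WT and the lowest Mtg16-/- library nearly equal (1.15, SE 0.35, adjusted p = 0.183). Insm1 read 493, 307 and 482 in WT and 748, 840.2, 756 and 679.9 in Mtg16-/- libraries, without overlap (0.85, SE 0.21, adjusted p = 0.104).

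Pax4 read 27.0, 19.5 and 31.9 in WT and 54.3, 48.8, 51.7 and 53.7 in Mtg16-/- libraries, again within a narrow range in the mutant (0.99, adjusted p = 0.187). The other 5 factors had log2 differences from 0.48 (Pax6) to 0.96 (Fev). Libraries with the same replicate number deviated together in this table, with correlations of 0.55, 0.46 and 0.32, and with the number as a block 4 factors passed: Neurog3 (1.70, adjusted p = 0.0044), Neurod1 (1.19, adjusted p = 0.012), Insm1 (0.90, adjusted p = 0.021) and Fev (1.03, adjusted p = 0.024). With the block 8.78% of all genes passed, and Mtg16-/- replicate 4, without a partner, adds nothing to those differences. The libraries numbered 1 also shared positive GC trends (0.27 and 0.31 per 10 points) and those numbered 2 negative ones (-0.33 and -0.22). Without WT replicate 1 Neurog3 passed, and without any other single library none of the 9 did, with the adjusted p of Neurog3 at 0.053 to 0.119. By Xist and Y-linked counts 2 of 3 WT and 1 of 4 Mtg16-/- libraries were called female, but the calls are unclear for WT replicate 1 and Mtg16-/- replicate 4, which held both Xist (3621 and 2169) and Y-linked counts (364 and 569). With sex called in this way as a covariate none of the 9 passed, beside 0.18% of genes (Neurog3 adjusted p = 0.115).

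Among the other lists after DSS in this colony, Atoh1 fell in Mtg16-/- crypts (-1.16, adjusted p = 0.016), and of 19 enteroendocrine product genes tested Cck (1.79) and Nts (3.6) were higher. None of 13 other enteroendocrine factors passed. Summed enteroendocrine markers were 27151 to 29210 in Mtg16-/- and 14946 to 20629 in WT libraries. Leukocyte markers were also apart, at 2597 to 8213 against 1174 to 2073, as were neuron markers at 758 to 1000.4 against 327 to 378, of which Ret averaged 850.3 and 311. Their part in the differences was not tested. The Mtg16-/- differences after DSS were set against those at baseline, and none of the 9 passed, beside 0.00738% of genes. All 9 differences were smaller after DSS, by 0.16 (Isl1) to 1.02 (Pax6, 95% interval of the change -1.80 to -0.23, adjusted p = 0.999).

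**Figure D5:**
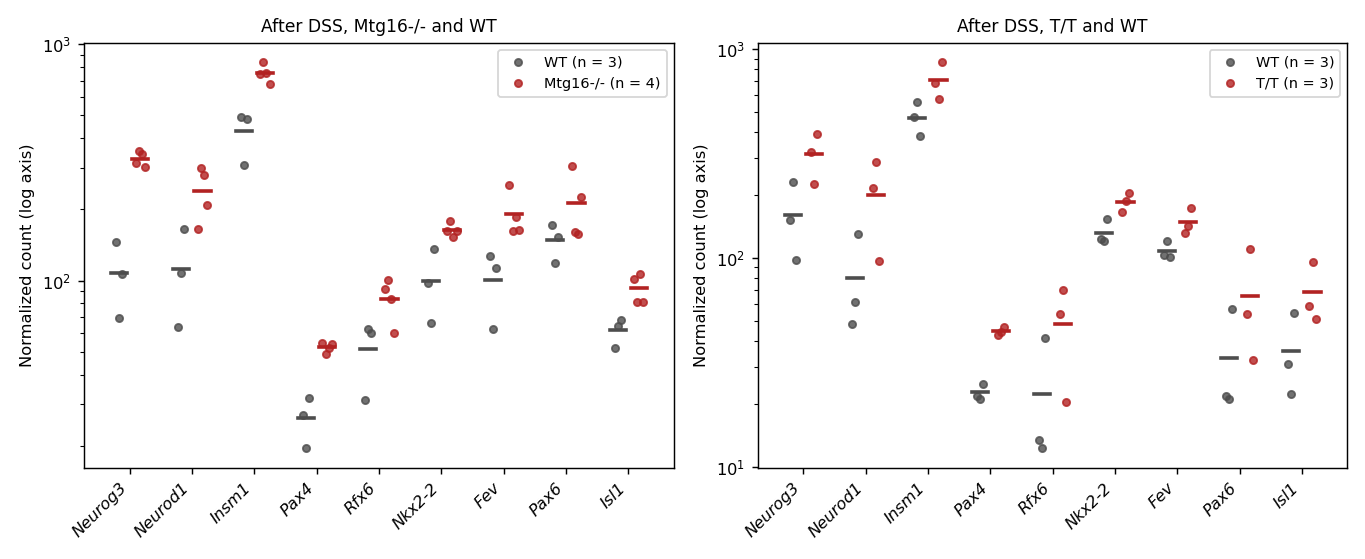
Normalized counts (log axis) of the 9 factors in distal crypts after DSS; each point is a library, bars are group means, grey is WT and red the mutant, with Mtg16-/- on the left and T/T on the right. Neurog3 is at 302 to 352 in Mtg16-/- against 69.4 to 146 in WT libraries, and the T/T libraries spread widely for Neurod1, Rfx6, Pax6 and Isl1.

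In T/T crypts after DSS (n = 3 and 3, all male by the same counts), the 9 factors had higher means than WT and 4 did not overlap (Insm1, Pax4, Nkx2-2 and Fev), beside 5.66% of genes in that direction. No gene in the table passed the test by limma (0%), while 8.77% of genes and 3 of the 9 factors had an unadjusted p under 0.05 and DESeq2 called none of the 9 and 2.45% of genes. Pax4 read 21.9, 21.2 and 25.0 in WT and 42.9, 44.4 and 46.5 in T/T libraries, the narrowest pair of groups (0.95, SE 0.28, adjusted p = 0.374). Neurog3 read 151, 232 and 98.2 in WT and 323, 225 and 393 in T/T libraries, with a single T/T value inside the WT range (1.01, SE 0.39, adjusted p = 0.523). Neurod1 read 48.0, 61.3 and 130.1 in WT and 216, 289 and 96.8 in T/T libraries (1.31, SE 0.54, adjusted p = 0.561).

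T/T replicate 3 was the lowest of its group and WT replicate 3 the highest of its group for Neurod1, Rfx6, Pax6 and Isl1, the 4 least GC-rich transcripts. The GC trends of the libraries were 0.33, 0.52 and -0.28 per 10 points in WT and -0.28, -0.68 and 0.38 in T/T replicates 1 to 3. With the length and GC trends removed, Neurog3 differed by 1.14 (adjusted p = 0.095), Insm1 by 0.65 (0.109) and Neurod1 by 0.87 (0.184). The 3 against 3 design cannot give an exact permutation p below 0.1. Leukocyte and neuron marker sums were higher in T/T (1403 to 1751 against 771 to 1055, and 793 to 1096 against 338 to 392), goblet marker sums were lower (546161 to 649005 against 989268 to 1172680), and the enteroendocrine marker sums overlapped (21533 to 26071 against 18016 to 23766). Of the 2 neuron markers tested, 1 had a positive log2 difference (1.47) and 1 a negative one (-0.28). The part of all these cells in the differences was not tested. The T/T difference after DSS was not shown to differ from that at baseline for any of the 9, beside 0.234% of genes that did differ, and for Neurog3 the change was 0.00014 (95% interval -0.97 to 0.97).

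Pax6 levels after DSS differed between the WT groups of the 2 colonies. WT crypts of the Mtg16-/- colony held 2.14 to 3.01 and those of the T/T colony 0.397 to 1.13 CPM, whereas the untreated WT distal groups held 0.826 to 1.38 and 1.03 to 1.47. The DSS experiments of the 2 colonies were separate sequencing requests and the tables were scaled apart, so this is given without a test.

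In the tumors (n = 3 and 3), Neurog3, Insm1 and Fev were lower in every library than in any crypt library, and Isl1 was higher in every library than in any crypt library. Neurod1, Pax4, Rfx6, Nkx2-2 and Pax6 had lower ranges that overlapped those of the crypts. Isl1 was at 18.6 to 53.4 CPM in the 6 tumors and 0.418 to 4.00 in the 36 crypt libraries. Neurog3 was at 0.0735 to 0.327 in the tumors and 0.912 to 13 in the crypts, without overlap, and Insm1 at 0.624 to 3.17 against 3.25 to 24.9. Neurod1 was at 0.220 to 2.15 against 0.911 to 9.68. Tumors were dissected whole, while the other libraries were isolated crypts. Fibroblast markers summed to 2616 to 3574 CPM in the tumors and 0.500 to 78.3 in the crypts, with smooth muscle at 244 to 1742 against 0.527 to 49.3, leukocytes at 925 to 3079 against 14.5 to 146 neurons at 24.4 to 40.8 against 2.12 to 22.2 and glia at 2.08 to 8.80 against 0.104 to 1.12, all without overlap. Epithelial markers were lower without overlap, at 6425 to 9529.6 against 9690.1 to 16180. Summed enteroendocrine markers were also lower, with 26.6 to 189 in the tumors and 268 to 890.2 in the crypts. The part of these cells in the levels was not tested.

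Between T/T and WT tumors no gene passed the test by limma (0%), with 2.47% of genes and 2 of 8 tested factors at an unadjusted p under 0.05, and DESeq2 called none of the 9 and 0.154% of genes. Neurod1 read 50.6, 10.6 and 34.1 in WT and 59.9, 104 and 53.6 in T/T tumors, without overlap (1.35, SE 0.58, adjusted p = 0.998). Fev read 22.1, 8.80 and 10.9 in WT and 30.4, 37.4 and 27.9 in T/T tumors (1.23, SE 0.43, adjusted p = 0.998). Insm1 and Pax4 also did not overlap, in a table where 2.98% of genes stood apart in that direction. Pax4 held 1.05 to 3.52 in WT and 6.80 to 9.82 in T/T tumors and was below the filter, with an exact permutation p of 0.1, the smallest possible. WT tumor replicate 2 was the lowest WT library for 7 of the 9. Neuron marker sums were lower in T/T than in WT tumors (1182 to 1209.7 against 1342 to 2043), and their part in the differences was not tested. Of the 5 neuron markers tested, 3 had positive log2 differences, with a median of 1.11 (range -0.70 to 1.57). The lower neuron sum therefore does not stand for most of its markers.

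Isl1 went the other way from the rest, with 959.5, 1408 and 2671 in WT and 902, 987 and 1189 in T/T tumors, and its groups overlapped (-0.59, 95% interval -1.37 to 0.19, adjusted p = 0.998). Its T/T difference in tumors was lower than in untreated distal crypts by 0.91 (95% interval -1.73 to -0.087, adjusted p = 0.772), and no gene passed that test (0%). All 19 tested enteroendocrine product genes had positive T/T differences in the tumors and none passed, with a median of 0.96 against 0.95 over the 8 tested factors and -0.0024 over all genes. Chga averaged 1152 in T/T and 564 in WT tumors.

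Within groups, some of the factors moved together from library to library. Over 34 libraries in 10 groups, deviations of log2 values from the group mean gave a median Pearson r of 0.24 over the 36 pairs, from -0.11 (Fev with Isl1) to 0.88. Pairs with Pax4 used the 28 crypt libraries among them, since Pax4 was below the filter in the tumors. These r values are descriptions, since the libraries of a table share a scaling and any GC trend. The closest pairs were Neurod1 with Rfx6 (0.88), Neurog3 with Insm1 (0.84), Nkx2-2 with Fev (0.74) and Rfx6 with Pax6 (0.73), and Isl1 was close to none of the 9 (r at most 0.47). With length and GC trends removed, the median r was 0.46, Neurog3 with Neurod1 moved from 0.24 to 0.67 and Neurod1 with Insm1 from 0.36 to 0.79.

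Among 13085 genes, the 5 whose deviations were most like those of Neurog3 were Insm1 (0.84), Pyy (0.73), Prrc1 (0.72), Cryba2 (0.72) and Nccrp1 (0.71). For Neurod1 they were Cyp4x1 and Rfx6 (0.88 each), Snap25 (0.86), Olfr78 (0.84) and Golph3l (0.83). For Isl1 they were Has2os (0.75), A830010M20Rik (0.71), Piezo2 (0.70), Anxa1 (0.69) and Gm14149 (0.68), with none of the other 8 factors among them.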

How the data were processed

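The authors trimmed paired-end reads with fastp 0.20.0, quantified transcripts with Salmon 1.3.0 against mm10, and deposited, for each of 9 comparisons, counts divided by DESeq2 1.26.0 size factors (R 3.6.3). The deposited values are such scaled signal values, 1 column per library, each table scaled on its own libraries. Columns with the authors' own mean, fold change, standard error, statistic and p-values were not used. Here log2(value + 1) was tested with limma 3.58.1 (R 4.3.3, intensity trend, two-sided) over genes with a mean of at least 10, so fold changes of low genes are understated. Members were also tested by two-sided exact permutation. Differences between effects were tested from 2 tables' fold changes and standard errors. Whole reads were recovered for 7 of 9 tables and tested with edgeR 4.0.16 and DESeq2 1.42.0 as alternatives, which could not be run for both proximal mutant tables. The 9 factors, named genes and lists were chosen with earlier results of these data known: from the lists at most 4 called genes of the largest change, with Atoh1, Chga and Cbfa2t3. The replicate number was fitted as a block, as an alternative, in every comparison, and among comparisons with 3 or more pairs every same-numbered pair correlated by over 0.1 only for Mtg16-/- after DSS. Tests were checked on simulated data.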

Additional observations from a re-analysis of the deposited data

Results flagged for a closer look

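Of 54 combinations of a factor and a group of 4 to 10 libraries, examined for a library far from the others, 2 were picked out. Chance picks out about 1 in 20 of independent combinations, but these were not independent, since the factors were read in the same libraries. Rfx6 read 113 in the library labelled Mtg16-/- replicate 2 of the distal crypts, apart from the other 3 Mtg16-/- libraries at 163 to 170.4. Isl1 read 132 in WT replicate 3 of the Mtg16 colony in the table of WT segments, apart from the other 6 distal libraries at 56.3 to 84.6.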

How the results depend on the processing

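Pax4 was under the minimum mean of 10 in the tumors and was not tested there by limma. Groups held 2 to 4 libraries, except 7 and 4 between WT segments. Counts of the 9 factors past the test depended on the processing as follows, with the share of all genes passing in parentheses. For Mtg16-/- against WT in distal crypts, where limma called 1, the count was 8 with DESeq2 (1.47%), 6 without both male libraries (0.597%, added after seeing the data), 2 with sex as a covariate (0.246%), and 0 with the request as a covariate (0.0578%), within request 4149 (0.0145%), within request 5094 (0%) and with the replicate number as a block (0.00723%). In T/T distal crypts DESeq2 called 2 instead of 0 (0.393%). Between WT segments 5 became 0 with the request as a covariate (23%) and within request 4149 (14.5%). In Mtg16-/- crypts after DSS 1 became 4 with the block (8.78%), 2 with DESeq2 (5.03%), 2 with length and GC trends removed (2.97%, added after seeing the data) and 0 with sex as a covariate (0.18%). In WT crypts after DSS 2 became 1 without a filter on low values (26.2%), 1 with edgeR (32.2%), 5 with DESeq2 (44.1%), and 0 with the block (19.7%) and with trends removed (26.3%). The cause was not tested. Leaving out 1 library at a time gave 0 to 7, 5 to 6, 0 to 1 and 0 to 6 calls for distal Mtg16-/-, WT segments, Mtg16-/- after DSS and WT after DSS, and 0 to 0 elsewhere. Where that left 1 library in a group, it was assumed to vary like the others.

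Signs turned for small values only. Pax4 between WT segments became -0.089 with the request as a covariate and within request 4149, and Insm1 in WT after DSS became -0.049 with trends removed. In the proximal minus distal T/T difference, scaling to library totals gave -0.0070 for Pax4 and -0.021 for Nkx2-2. In the DSS minus baseline T/T difference, Neurog3 became -0.0050 with a pseudocount of 0.1 and Insm1 0.14 with trends removed. Without single libraries, T/T distal differences ran from -0.046 to 0.40 for Neurod1, -0.034 to 0.42 for Rfx6 and -0.0089 to 0.30 for Pax6. The proximal minus distal T/T difference ran from -0.25 to 0.29 for Pax4 and -0.090 to 0.19 for Nkx2-2. The DSS minus baseline difference ran from -0.41 to 0.018 for Isl1 in Mtg16-/-, and in T/T from -0.31 to 0.31 for Neurog3 and -0.21 to 0.082 for Insm1. The tumor minus baseline T/T difference ran from -0.24 to 0.57 for Insm1 and -0.12 to 0.55 for Nkx2-2. The numbers met the criterion for pairs in Mtg16-/- after DSS only, and elsewhere the block is an alternative. In distal Mtg16-/- crypts same-numbered libraries correlated by 0.016 to 0.37. With the block the count of called factors changed by over 1.5 times in distal Mtg16-/-, Mtg16-/- after DSS and WT after DSS, and in no other comparison.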
